A study of Mus musculus with 6 samples.

Results

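The mitochondrial ribosomal protein genes encode the protein components of the ribosome that works inside mitochondria. Their expression is described here in 3 Ago2-deficient mature mouse oocytes and 3 wild-type oocytes of the germinal vesicle (GV) stage, with 1 oocyte on each array. The genes were taken by symbol: Mrpl or Mrps, followed by a number and at most a letter a, b or c, on probes annotated to a single gene. This gave 67 probes for 65 of the 32441 genes on the array, where a probe without a single symbol counts as a gene of its own. By the known assignments, 43 of the 65 genes belong to the large subunit, 21 to the small subunit and 1, Mrps36, to neither. Mrps18a, Mrps18c, Mrpl12 and Mrpl44 were not analysed here.

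The mutant oocytes came from [Ago2F/F, Zp3-Cre] females. In these females the floxed Ago2 alleles are deleted by a Cre recombinase under the promoter of the zona pellucida gene Zp3, which is active in growing oocytes, so the rest of the animal keeps Ago2. Ago2 is the Argonaute protein with slicer activity. The controls are labelled as wild-type GV oocytes, the stage that precedes meiotic maturation, although the same labels say that they were taken from oviducts of adult females and freed of cumulus cells with hyaluronidase. The age of the mutant females is not given in the labels. Genotype and labelled stage change together between the groups and cannot be told apart. Nothing in the labels says that the oocytes of a group came from different females, so the p-values below measure only the spread between these oocytes.

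The mitochondrial genome encodes ribosomal RNA but, in mammals, no ribosomal protein, so each protein described here is made in the cytosol and imported. The assembled ribosome translates the few mRNAs of mitochondrial DNA, which encode core subunits of the respiratory chain and of ATP synthase. The small subunit holds and decodes the mRNA, and the large subunit joins the amino acids. Many of the proteins have homologues in bacteria, and others are particular to mitochondria. The oocyte supplies the embryo with all of its mitochondria.

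The oocytes of both groups carried oocyte transcripts, but the mutant arrays detected fewer transcripts overall. Detection meant a signal-to-noise of 3 or more, and the Ago2-deficient arrays detected 14 to 20.6% of the 33012 probes against 32.3 to 34.3% on the GV arrays. Undetected probes had a median signal of 145 to 231 on the Ago2-deficient arrays and of 70.8 to 83.3 on the GV arrays. Of 13 oocyte markers on the array, 9 to 10 were detected in each Ago2-deficient oocyte and all 13 in each GV oocyte, with summed log2 values of 172 to 175 and 207 to 210. Zp2, Figla and Kit were detected in no Ago2-deficient oocyte. Of 17 cumulus and granulosa markers, 2 to 5 were detected in each Ago2-deficient oocyte and 3 to 5 in each GV oocyte, with summed log2 values of 133 to 138 and 131 to 133. Despite similar counts, the markers detected differed between the groups. Ereg and Btc reached detection on every mutant array but on none of the GV arrays. Inha and Hsd17b1 showed the reverse. The cause of this difference was not tested. Both blood markers were undetected on every array. The Ago2 probe was detected in no Ago2-deficient oocyte and in 1 GV oocyte, at 6.67, 6.49 and 6.94 against 7.88, 6.25 and 6.93 on the log2 scale. Where this probe lies relative to the deleted exons is unknown here, and it cannot serve as a check of genotype. How far fewer detected transcripts or the higher background account for the differences below was not tested, and fewer transcripts and less RNA recovered from an oocyte cannot be told apart.

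Fewer mitochondrial ribosomal protein genes were detected in the Ago2-deficient oocytes, as were fewer probes of the whole array. Of the 65 genes, the 3 Ago2-deficient oocytes showed 26, 29 and 34 and the 3 GV oocytes 52, 55 and 53. On average this was 45.6 ± 6.21% of the genes in the mutant oocytes and 82.0 ± 2.35% in the GV oocytes (SD, n = 3 each). The highest mutant oocyte lay below the lowest GV oocyte, as it did for all probes on the array, where the means were 18.3 ± 3.7% and 33 ± 1.13%. In all 3 oocytes of the group, 22 genes were detected in the mutants and 50 in the controls. Of these 50, 21 were also detected in all 3 Ago2-deficient oocytes, 16 in 1 or 2 of them and 13 in none. Among all 7668 genes detected in every GV oocyte, 32.6% were detected in every Ago2-deficient oocyte, 33.5% in some and 33.9% in none. Mrpl15 was the 1 gene detected in a mutant oocyte and in no GV oocyte, and Mrpl11, Mrpl21, Mrpl4, Mrpl45, Mrps14, Mrps2 and Mrps34 were detected in no oocyte.

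**Figure D1:**
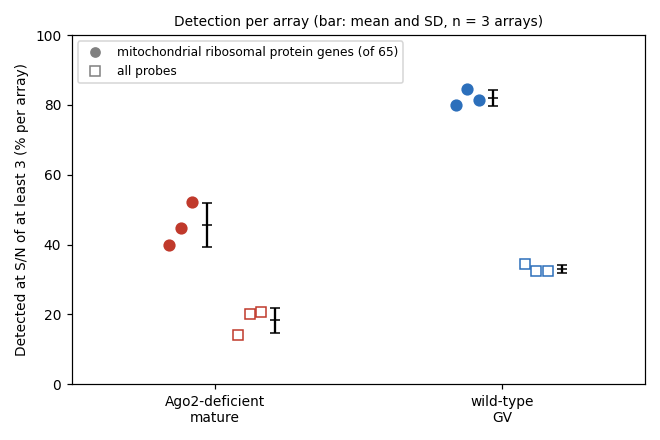
Share of genes or probes detected (signal-to-noise of at least 3, in percent) on each array, with the Ago2-deficient oocytes left of the GV oocytes, for the 65 mitochondrial ribosomal protein genes and for all 33012 probes; points are single oocytes and lines are means with SD. The mutant oocytes sit at 40.0 to 52.3% of the mitochondrial ribosomal protein genes and the GV oocytes at 80.0 to 84.6%.

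Among the genes that could be tested, calls of lower outnumbered calls of higher in the Ago2-deficient oocytes. Quantile-normalized log2 values were compared with limma for 51 of the 65 genes, those with a probe that every array of 1 group or the other detected, and a call needed an adjusted p under 0.05 and more than a 2-fold change. By this rule 33 of the 51 genes were lower (64.7%), 3 were higher (5.88%) and 15 were not called, while 44.8% of all 7915 genes tested were lower and 17.4% were higher. Of the 33 lower genes, 10 were detected in no Ago2-deficient oocyte and 13 in only some, so these entered the test through the GV oocytes alone, where they are high, and this selection favours a lower value in the mutants. The other 10 were detected in all 6 oocytes and are given separately below. At an unadjusted p under 0.05 the counts were 36 lower and 3 higher, against 48.2% and 18.8% of all genes. The difference was below 0 in 47 of the 51 genes. All 3 mutant oocytes lay below all 3 GV oocytes in 37 of them, against 50.3% of all genes tested, and above them in 4, against 20.2%. The median difference, mutant minus GV, was -2.40 on the log2 scale for the 51 genes and -1.39 for all genes tested, and 34 of the 51 lay below that general median. In the GV oocytes the median log2 value was 12.16 to 12.48 for the members and 10.53 for all genes tested. In the mutant oocytes the medians were 9.23, 9.57 and 11.08 against 8.54, 9.71 and 9.75. Members thus started brighter, and the comparisons with all genes, here and below, were not matched for brightness.

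**Figure D2:**
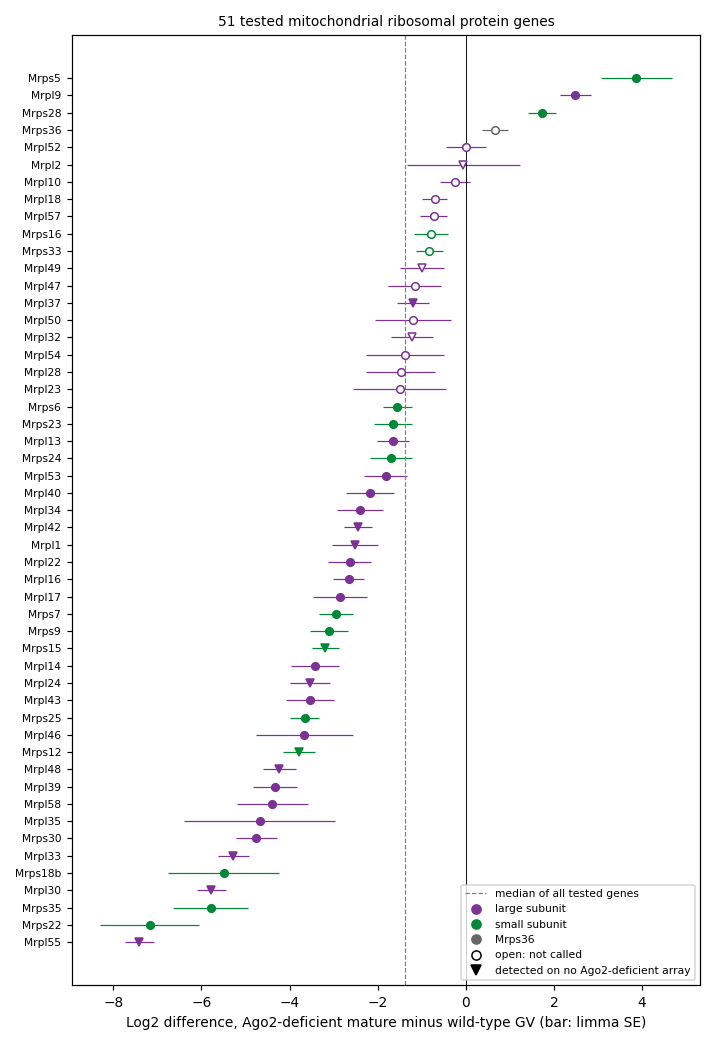
Log2 difference, Ago2-deficient minus GV oocytes, of each of the 51 tested mitochondrial ribosomal protein genes with its standard error from limma, ordered by size and coloured by subunit, with open points for genes not called and triangles for genes undetected in every mutant oocyte; a dashed line marks the general median over the genes tested. With quantile normalization the differences run from -7.41 for Mrpl55 to 3.87 for Mrps5, and 47 of them lie below 0.

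Lower genes were found in both subunits. Of 35 tested genes of the large subunit, 22 were lower, 1 was higher and 12 were not called, with a median difference of -2.40. Of 15 tested genes of the small subunit, 11 were lower, 2 were higher and 2 were not called, with a median of -2.95. Proteins listed here as having a bacterial homologue gave 17 lower and 2 higher of 27, with a median of -2.40. Proteins listed as particular to mitochondrial ribosomes gave 14 lower of 20, with a median of -2.31, and the other 6 were not called. Mrpl55, Mrpl58, Mrps28 and Mrps36 were put in neither list. Of these, Mrpl55 and Mrpl58 were lower, Mrps28 was higher and Mrps36 was not called. Lower shares were 62.9% for the large subunit, 73.3% for the small subunit, 63.0% with a bacterial homologue and 70.0% particular to mitochondria. Of all genes tested 44.8% were lower and 17.4% higher, with a median of -1.39. Of the 22 lower large subunit genes, 8 were detected in no mutant oocyte and 9 in only some. For the 11 lower small subunit genes these numbers were 2 and 4, and such genes entered the test through the GV oocytes alone. The differences between these groups were not tested.

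Some large subunit genes were detected in every GV oocyte and in no mutant oocyte. Mrpl55 read 6.71, 6.62 and 6.37 in the Ago2-deficient oocytes, where it was undetected, against 13.65, 14.02 and 14.26 in the GV oocytes, a difference of -7.41 ± 0.33 (SE, adjusted p = 9e-05). Where a gene was undetected in all 3 mutant oocytes the fold is nominal. It uses the higher of the probe's own value and the lowest detected signal on each array. Undetected spots can read higher, as Mrpl2 did at 12.28 in Ago2-deficient oocyte 1, so a nominal fold is not a strict minimum. By this measure Mrpl55 was 170-fold lower. Mrpl30, a homologue of bacterial L30, read 6.75, 6.37 and 7.04 in the mutants and 12.54, 12.34 and 12.62 in the GV oocytes. Its fall was a nominal 55.1-fold (adjusted p = 0.000114). Mrpl33, a homologue of bacterial L33, read 7.19, 6.58 and 6.56 in the mutants and 12.24, 12.18 and 11.75 in the GV oocytes. Its fall was a nominal 38.9-fold (adjusted p = 0.000132). In each of these genes the GV oocytes lay close together and far above every mutant oocyte. Here and below, nominal folds are those with quantile normalization and can be smaller with another scaling. With cyclic loess the fitted difference was -5.08 for Mrpl55, -3.57 for Mrpl30 and -3.08 for Mrpl33, and each was still called lower. Mrpl55 had the largest fall of the family with quantile normalization, and under the other 4 scalings the fitted difference of the small subunit gene Mrps22 was slightly larger.

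Other large subunit genes were low in all mutant oocytes but detected in some. Mrps30 is a large subunit protein despite its name, and it read 9.23, 9.05 and 10.47 in the mutant oocytes and 14.58, 14.45 and 13.96 in the GV oocytes, a difference of -4.75 ± 0.47 (SE, adjusted p = 0.000347). Mrpl39 was detected in only the first mutant oocyte, at 7.74, 6.0 and 6.78 across the mutants and 11.50, 11.08 and 10.91 in the GV oocytes, a difference of -4.32 ± 0.50 (adjusted p = 0.000575). Mrpl58 encodes a peptidyl-tRNA hydrolase that is built into the large subunit and can release stalled chains. It read 6.46, 8.16 and 9.66 in the mutants and 12.16, 13.07 and 12.24 in the GV oocytes, a difference of -4.39 ± 0.81 (adjusted p = 0.00344). Without Ago2-deficient oocyte 1 the difference was -3.57. Without oocyte 3, the 1 mutant in which Mrpl58 was detected, the gene was a nominal 36.2-fold lower. Mrpl35, a homologue of bacterial L35, had the widest spread among mutants of the 51 genes, with 14.19, 6.80 and 11.43 in the mutants against 15.81, 15.43 and 15.24 in the GV oocytes, a difference of -4.68 ± 1.71 (adjusted p = 0.0492). Its difference was -6.37 without Ago2-deficient oocyte 1 and -2.68 without oocyte 2. The call was lost without Ago2-deficient oocyte 3 (adjusted p = 0.0786) and without GV oocyte 1, 2 or 3 (adjusted p = 0.131, 0.114 and 0.108), and also with a detection limit of 2 (0.0507), without filtering dim probes (0.11) and with ordinary t-statistics (0.14).

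In the small subunit the largest falls with quantile normalization were those of Mrps22, Mrps35 and Mrps18b. MRPS22, which is particular to mitochondrial ribosomes, is known in humans for variants that go with ovarian insufficiency. Mouse Mrps22 read 7.51, 6.72 and 11.22 in the mutant oocytes and 15.52, 15.72 and 15.73 in the GV oocytes, a difference of -7.17 ± 1.12 (SE, adjusted p = 0.00174). It was detected in only the third mutant oocyte, and without that oocyte it was a nominal 373-fold lower. Without Ago2-deficient oocyte 2 the difference was -6.29. Mrps35, also particular to mitochondria, was detected in every oocyte, at 10.85, 8.54 and 11.93 in the mutants and 15.85, 16.57 and 16.25 in the GV oocytes, a difference of -5.79 ± 0.85 (adjusted p = 0.00135). The difference was -4.83 without Ago2-deficient oocyte 2 and -6.53 without oocyte 3. Mrps18b belongs to a small family of paralogous S18 proteins, and it read 6.58, 10.24 and 11.87 in the mutants and 15.07, 15.37 and 14.74 in the GV oocytes, a difference of -5.49 ± 1.26 (adjusted p = 0.0085). Its difference was -4.0 without Ago2-deficient oocyte 1 and -6.65 without oocyte 3. In all 3 genes the mutant oocytes were spread widely and still lay below every GV oocyte.

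Further small subunit genes gave tighter values. Mrps25, particular to mitochondria, was detected in every oocyte, at 13.51, 13.39 and 13.11 in the mutant oocytes and 16.77, 17.22 and 17.01 in the GV oocytes, a difference of -3.66 ± 0.32 (SE, adjusted p = 0.000234). Mrps7, a homologue of bacterial S7, which starts the assembly of the head of the small subunit, read 13.28, 12.82 and 12.86 in the mutants and 15.35, 16.28 and 16.18 in the GV oocytes, a difference of -2.95 ± 0.38 (adjusted p = 0.000848). Mrps12, a homologue of S12 at the decoding site, was undetected in the mutants at 7.0, 6.95 and 6.17. In the GV oocytes it read 10.60, 10.56 and 10.31, a nominal 13.4-fold fall in the mutants with quantile normalization (adjusted p = 0.0003). Its fitted difference was -1.98 with cyclic loess and -2.85 with the arrays centred on probes that all 6 detected. The mutant and GV values did not overlap in any of the 3.

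**Figure D3:**
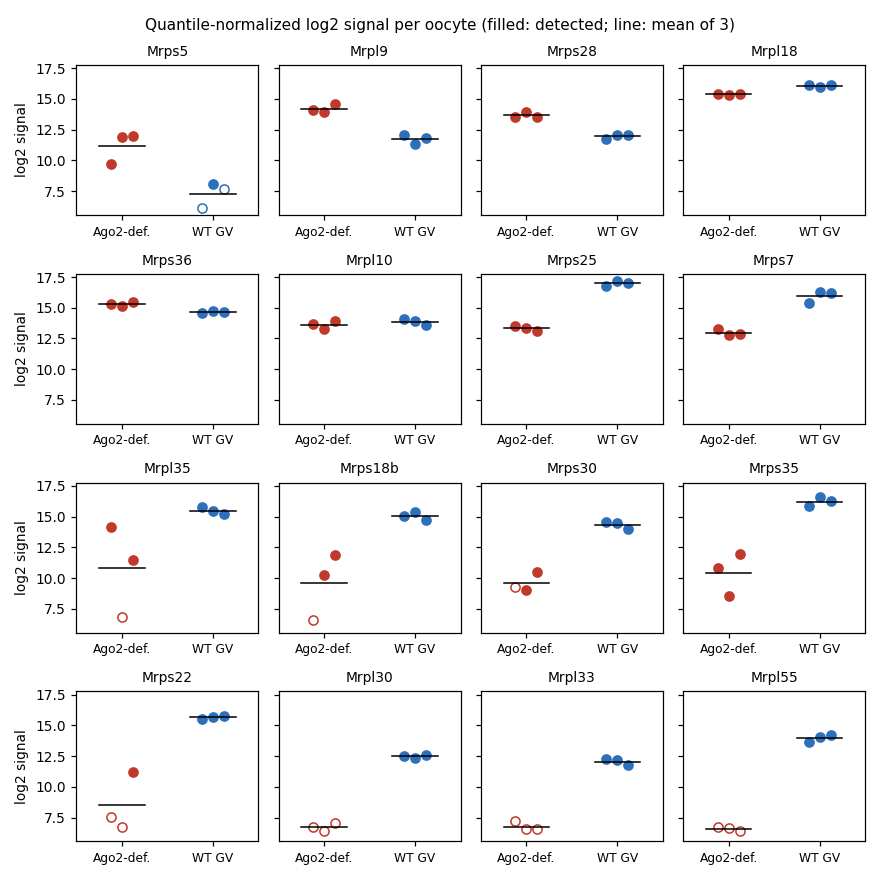
Quantile-normalized log2 value of each oocyte for a part of the member genes named in the text, with the 3 Ago2-deficient oocytes left of the 3 GV oocytes for each gene; filled points were detected at a signal-to-noise of at least 3 and open points were not, and lines are means of 3. Mrpl35 and Mrps22 spread over 7.39 and 4.50 log2 units in the mutants and over 0.57 and 0.21 in the GV oocytes.

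The genes that were higher in the mutants were Mrps5, Mrpl9 and Mrps28. Mrps5 is a homologue of bacterial S5, which lies near the path of the mRNA and affects the accuracy of decoding. It read 9.69, 11.89 and 11.96 in the Ago2-deficient oocytes, all detected, and 6.11, 8.09 and 7.70 in the GV oocytes, detected in 1 of them, a difference of 3.87 ± 0.80 (SE, adjusted p = 0.00551). The difference was 4.62 without Ago2-deficient oocyte 1 and 3.28 without GV oocyte 1. Mrpl9, a homologue of bacterial L9, read 14.14, 13.96 and 14.55 in the mutants and 12.03, 11.37 and 11.80 in the GV oocytes, a difference of 2.48 ± 0.35 (adjusted p = 0.00117). Mrps28 read 13.57, 13.97 and 13.54 in the mutants and 11.77, 12.04 and 12.08 in the GV oocytes, a difference of 1.73 ± 0.32 (adjusted p = 0.00332). Of the 3, only Mrps5 kept its direction under every scaling of the arrays that was tried. However, Mrps5 entered the test through the mutant oocytes alone, where it is high, and this selection favours a higher value there. It was not tested with a detection limit of 5 or with only probes that all 6 arrays detected. Mrpl9 turned to -0.76 with the arrays scaled to a common median and was not called without scaling (0.34, adjusted p = 0.623). Mrps28 turned to -1.60 with a common median, where it was called lower (adjusted p = 0.0207), and to -0.49 without scaling, and was not called with each array centred on those probes that all 6 detected (0.62, adjusted p = 0.174).

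Several genes with a high signal in both groups were not called. Mrpl18, a homologue of bacterial L18, read 15.42, 15.31 and 15.38 in the mutant oocytes and 16.10, 16 and 16.14 in the GV oocytes, a difference of -0.71 (adjusted p = 0.0698). Mrpl10, which anchors the stalk that binds translation factors, read 13.69, 13.29 and 13.91 in the mutants and 14.07, 13.93 and 13.62 in the GV oocytes, a difference of -0.24 (adjusted p = 0.555). Mrps16, a homologue of bacterial S16, read 12.62, 12.48 and 13.39 in the mutants and 13.48, 14 and 13.39 in the GV oocytes, a difference of -0.79 (adjusted p = 0.118). Leaving out Ago2-deficient oocyte 3 brought Mrps16 to -1.07 and past the threshold (adjusted p = 0.0382). Mrpl57, which is particular to mitochondria, read 12.06, 12.38 and 12.52 in the mutants and 12.99, 13.14 and 13.00 in the GV oocytes, a difference of -0.73 (adjusted p = 0.0781). The groups did not overlap for Mrpl18 and Mrpl57 and met or overlapped for Mrpl10 and Mrps16. With a common median, without scaling, or with that centring, Mrpl18, Mrpl10, Mrps16 and Mrpl57 were called lower.

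Mrps36 is named as a ribosomal protein but is known as a subunit of the 2-oxoglutarate dehydrogenase complex of the citric acid cycle. It read 15.31, 15.17 and 15.47 in the mutant oocytes and 14.54, 14.75 and 14.67 in the GV oocytes, a difference of 0.66 (adjusted p = 0.0921). Its sign turned with a common median (-2.37, adjusted p = 0.00164), without scaling (-1.26) and with the centring (-0.15). Of the 2 genes with several probes, Mrps33 had both tested, and they disagreed in call. The brighter probe read 13.51, 13.78 and 13.77 in the mutants and 14.74, 14.32 and 14.50 in the GV oocytes, a difference of -0.83 that was not called (adjusted p = 0.053). The dimmer probe, undetected in the mutants, read 9.32, 7.03 and 7.55 there and 10.19, 10.24 and 10.30 in the GV oocytes. By this probe the mutants were a nominal 4.85-fold lower (adjusted p = 0.016). Probe sequences were not used here, so it was not checked which transcripts each probe reads. The brighter Mrps33 probe was also called lower with a common median, without scaling and with the centring.

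The genes detected in all 6 oocytes carry a measured value on every array, and among them the family still stood low. There were 21 such genes, of which 10 were lower (47.6%), 2 were higher (9.52%) and 9 were not called, while of all 2497 genes detected in all 6 oocytes 20.2% were lower and 43.5% were higher. The median difference was -1.38 for the 21 genes and 0.83 for the 2497. Because the mutant arrays detected fewer probes, detection in all 6 oocytes was set mainly by them. This selection, here and below, favours genes that are high in the mutants, and the median of all genes tested was -1.39. The 10 lower genes were Mrpl13, Mrpl14, Mrpl16, Mrpl34 and Mrpl40 of the large subunit and Mrps6, Mrps7, Mrps24, Mrps25 and Mrps35 of the small subunit, and apart from Mrps7, Mrps25 and Mrps35 they are named after their values were seen. Mrps24, a homologue of bacterial S3, read 12.68, 12.46 and 11.24 in the mutant oocytes and 13.52, 13.83 and 14.13 in the GV oocytes, and its call was lost without GV oocyte 2 or 3 (adjusted p = 0.0625 and 0.0736) and when dim probes were kept (0.0679). The 2 higher genes were Mrpl9 and Mrps28. Fitting these probes alone also gave 10 lower and 2 higher members, against 21.7% and 45.2% of the 2497 genes. With that filter and another scaling, chosen after seeing the data, the lower members of the 21 numbered 20 with a common median, 19 without scaling, 17 with the centring and 10 with cyclic loess, against 63.5%, 46.9%, 33.8% and 19.7% of all such genes. The higher members numbered 0, 0, 1 and 2 in that order, against 5.89%, 16%, 34.7% and 51.7%.

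How far the genes fell depended on the scaling. The authors' quantile normalization gives every array nearly the same distribution of values although the mutant arrays detected fewer probes. Over the 5 scalings the median difference of all genes tested ran from -3.08 with a common median to -0.36 with cyclic loess, and that of the 51 family members from -4.92 to -1.26. The number of members called lower was 49 with a common median, 42 without scaling, 38 with the centring, 33 with quantile normalization and 25 with cyclic loess, against 78.6%, 60.3%, 39.7%, 44.8% and 31.7% of all genes tested. The number called higher was 1, 1, 2, 3 and 3 in that order, against 3.94%, 7.72%, 16.5%, 17.4% and 24.7%. Of the 21 members detected in all 6 oocytes, 19 lay below the median of all such genes under each of the 5 scalings, and those above it were Mrpl9 and Mrps28. Without scaling, with the centring and with a common median, the differences are those of 1 fit moved by a constant that is the same for every gene, so a count below the general median is bound to be equal in these 3 and they add no check of it. Quantile normalization and cyclic loess change genes unequally.

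**Figure D4:**
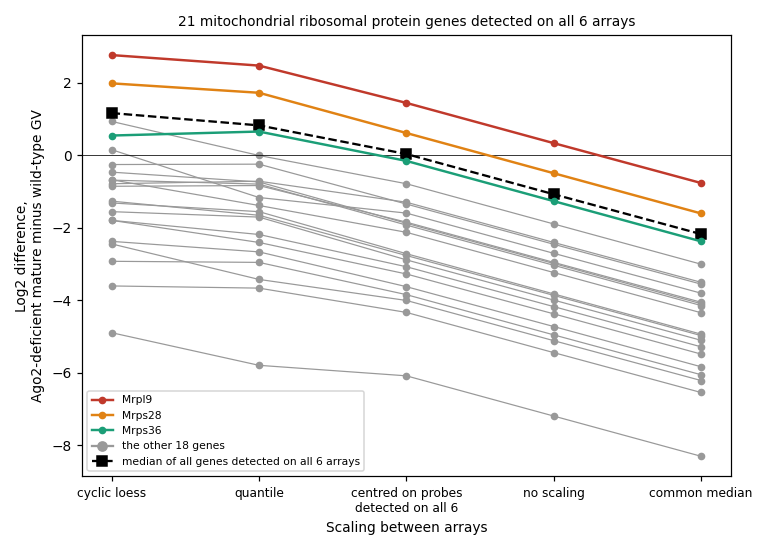
Log2 difference, Ago2-deficient minus GV oocytes, of the 21 mitochondrial ribosomal protein genes detected in all 6 oocytes under the 5 scalings of the arrays, with a dashed line for the median of all 2497 genes detected in all 6 and Mrpl9, Mrps28 and Mrps36 in colour. The member median lies below the general one in each, at -1.38 against 0.83 with quantile normalization and at -4.34 against -2.17 with a common median.

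Mutant oocytes also varied more among themselves. The median SD of the 51 genes was 0.72 log2 units among the Ago2-deficient oocytes and 0.30 among the GV oocytes, close to the 0.74 and 0.28 of all genes tested. The 3 mutant oocytes spanned more than 3 log2 units in 11 of the 51 genes, against 18.4% of all genes tested, and the GV oocytes spanned that much in none of the 51, against 0.442%. Mrpl35 had the widest span of the 11, 7.39 units, followed by Mrps18b with 5.29, Mrpl2 with 4.83 and Mrps22 with 4.50. The high oocyte was not the same one in each. Oocyte 1 was the highest mutant for Mrpl35 and Mrpl2, and oocyte 3 for Mrps18b and Mrps22. The value of 12.28 for Mrpl2 in oocyte 1 was of a spot that did not reach detection. Of the 11 genes only Mrpl54 and Mrps35 were detected in all 3 mutant oocytes, so the other spans include spots under detection.

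The genes that serve the mitochondrial ribosome without bearing an Mrp name were taken as a list of partners. Of 87 listed names of further subunits, assembly factors, translation and transcription factors and mitochondrial tRNA synthetases, 57 were on the array and 36 were tested, of which 26 were lower (72.2%), 1 was higher and 9 were not called, against 44.8% lower and 17.4% higher among all genes tested. Only 8 of the 36 were detected in all 6 oocytes, and the others entered the test through the GV oocytes alone. Of the 8, 5 were lower and 1 was higher, against 20.2% and 43.5% of all genes detected in all 6. Among the ribosomal subunits with other names, Gadd45gip1, Dap3 and Chchd1 were lower, while Ptcd3 was not tested. The 1 higher partner, Lactb, was listed beside them but is not taken here as a subunit. Gadd45gip1 lies in the large subunit near the exit tunnel, and it read 6.57, 10.18 and 10.16 in the mutant oocytes and 15.06, 15.11 and 15.04 in the GV oocytes, a difference of -6.10 ± 0.98 (SE, adjusted p = 0.00193). Its difference was -4.90 without Ago2-deficient oocyte 1, -6.71 without oocyte 2 and -6.70 without oocyte 3. Lactb, a mitochondrial protein with a beta-lactamase-like fold that was first purified with the ribosome, read 13.52, 14.31 and 13.82 in the mutants and 9.59, 10.64 and 10.89 in the GV oocytes, a difference of 3.51 (adjusted p = 0.00088). With a common median Lactb differed by 0.61 and was not called.

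Of 7 tested translation factors 6 were lower, where 44.8% of all genes tested were. The release factor Mtrf1l was undetected in the Ago2-deficient oocytes at 7.04, 6.74 and 6.81 and read 12.57, 12.84 and 12.41 in the GV oocytes. It was a nominal 53.5-fold lower with quantile normalization (adjusted p = 0.000114), and its fitted difference was -3.48 with cyclic loess. The initiation factor Mtif3 read 9.25, 9.5 and 8.35 in the mutants and 14.39, 14.50 and 14.58 in the GV oocytes, a difference of -5.46 (adjusted p = 0.00016). Of 9 tested tRNA synthetases 6 were lower, of 14 tested assembly and rRNA factors 9 were lower, and both transcription genes tested, Polrmt and Tfam, were lower. The brightest genes of this list that were not called were the pseudouridine synthase Rpusd4, at 15.60, 15.65 and 15.45 in the mutants and 14.93, 14.74 and 14.98 in the GV oocytes, and Letm1, a protein of the inner membrane, at 14.42, 15.07 and 14.64 against 13.92, 13.56 and 13.91. Their differences of 0.69 and 0.91 both turned negative with a common median, without scaling and with the centring, and with the common median both were called lower (adjusted p = 0.00209 and 0.00385). Letm1 had an adjusted p of 0.0496 below the fold limit, and passed both limits with array weights (1.04) and without Ago2-deficient oocyte 1 (1.06).

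The proteins of the cytosolic ribosome, which translates all nuclear messages, were counted in the same way. Of 54 tested cytosolic ribosomal protein genes 36 were lower (66.7%) and 4 were higher, with a median difference of -2.62, against 44.8% lower and 17.4% higher among all genes tested. Of the 31 detected in all 6 oocytes 17 were lower (54.8%) and 4 were higher (12.9%), against 20.2% and 43.5% of all such genes. No test compared the families.

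**Figure D5:**
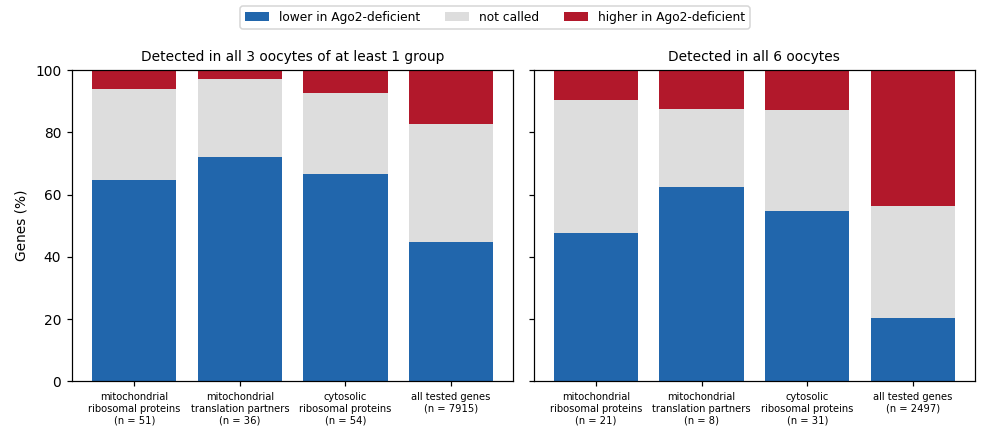
Share of genes (percent) called lower, not called and called higher in Ago2-deficient against GV oocytes, for the mitochondrial ribosomal protein genes, their mitochondrial translation partners, the cytosolic ribosomal protein genes and all genes tested; the left panel holds genes detected in all 3 oocytes of at least 1 group and the right panel genes detected in all 6. In the left panel 64.7% of the mitochondrial ribosomal protein genes were lower, against 44.8% of all genes, and in the right panel 47.6% against 20.2%.

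The promoters of the members were read for the motifs of factors known to act on genes of mitochondrial function. The 250 bases before the transcription start were taken from RefSeq (GRCm38.p6), whose table held 57 of the 65 genes. The motif of NRF1, searched on both strands as GCGCA, any base and GCGC, was found before 7 of the 57 genes (12.3%), against 4.23% of all 27025 genes of the table. The core of the ETS family, which includes GABPA (also called NRF2), was searched as CCGGAAG on both strands and found before 13 of the 57 (22.8%), against 7.83%. YY1's AAGATGGC was found before 4 (7.02%), against 1.83%. By call, the NRF1 letters stood before 3 of 31 lower genes (9.68%), 1 of 2 higher genes and 2 of 14 genes not called (14.3%), and the ETS letters before 8 of 31 lower genes (25.8%), 0 of 2 higher genes and 3 of 14 not called (21.4%). The differences between these shares were not tested, and a match is a description of the letters, not a site in use.

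The promoters of 1 higher and 2 lower genes are shown. Mrpl9 and Mrpl30 hold matches to the NRF1 motif but were called in opposite directions with quantile normalization, although Mrpl9 turned negative with a common median. Mrps22 is shown for its ETS letters. Each promoter is given 5′ to 3′ on the strand of its gene and ends at the base before the transcription start, with the motif in capitals. Mrpl9 (chr3:94443086-94443335, plus strand), higher in the mutants with quantile normalization, and Mrpl30 (chr1:37890227-37890476, plus strand), lower in them, hold the NRF1 letters beginning 28 and 83 bases before the start, and Mrps22 (chr9:98601680-98601929, minus strand), lower in the mutants, holds the ETS letters beginning 11 bases before it. The match in Mrpl30 is to the opposite strand.
Mrpl9: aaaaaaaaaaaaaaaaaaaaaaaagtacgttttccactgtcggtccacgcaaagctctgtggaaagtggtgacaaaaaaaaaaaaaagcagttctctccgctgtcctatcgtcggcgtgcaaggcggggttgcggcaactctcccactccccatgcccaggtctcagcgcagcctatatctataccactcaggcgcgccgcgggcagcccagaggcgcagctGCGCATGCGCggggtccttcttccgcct
Mrpl30: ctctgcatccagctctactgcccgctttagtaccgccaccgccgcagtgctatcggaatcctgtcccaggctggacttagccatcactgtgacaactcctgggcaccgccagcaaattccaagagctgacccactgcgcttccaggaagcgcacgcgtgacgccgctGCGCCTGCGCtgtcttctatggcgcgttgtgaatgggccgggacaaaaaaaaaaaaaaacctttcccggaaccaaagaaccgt
Mrps22: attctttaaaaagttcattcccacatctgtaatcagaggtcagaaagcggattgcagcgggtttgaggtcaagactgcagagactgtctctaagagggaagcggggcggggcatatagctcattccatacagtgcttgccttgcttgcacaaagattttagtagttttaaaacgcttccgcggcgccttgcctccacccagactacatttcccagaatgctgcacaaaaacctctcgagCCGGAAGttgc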

How the data were processed

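RNA of single oocytes was converted to cDNA, transcribed into digoxigenin-labelled cRNA and hybridised by the authors to chemiluminescent Applied Biosystems mouse arrays, 3 per group. The deposited signal intensity is not scaled between arrays. Beside it stand a deposited score, the signal-to-noise of the spot, and a flag. The scanner's program is not given in the sources. Log2 values, quantile normalized by the authors, were deposited too, with quantiles that differ between arrays by at most 0.0107. The deposited series table holds the same log2 values with 2675 cells empty, all at spots flagged 5000 or above, and 4 of these spots are of members (Mrpl15, Mrpl48 and, on 2 arrays, Mrps34). Of the 33012 probes 14411 carry 1 symbol, 247 several and 18354 none. The gene identifiers of 14402 were in the gene table, with 0 symbols changed.

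Probes with a signal-to-noise of 3 or more on every array of 1 group or the other were fitted on the quantile-normalized log2 values with limma 3.58.1 (lmFit, eBayes) in R 4.3.3, with p-values adjusted by Benjamini and Hochberg over all probes tested. Where a gene had more than 1 tested probe, the brightest stood for it. The fit was tested on simulated data. The number of arrays limits the precision. Members and lists were chosen with earlier results of these data known. Members named are up to 10 higher and up to 10 lower, the largest called without overlap between groups, the 6 brightest not called, the 6 brightest in each group, genes whose probes disagree, and a few fixed by function. Partner genes named are up to 3 called in each direction and 2 not called. Others are said to be named after their values were seen. Alternatives covered scaling, filter, detection and fold limits, variance model, probe choice, replicate block and each array left out. Python 3.11.15 and matplotlib 3.10.9 drew the plots. Promoter sequences came from RefSeq (GRCm38.p6).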

Additional observations from a re-analysis of the deposited data

How the results depend on the processing

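Of 33 lower members 21 kept their call, and of 3 higher members 1 (Mrps5), in every alternative, of 22, that tested them. Members called higher numbered 1 with a common median and 1 without scaling, against 3.94% and 7.72% of all genes tested. Over the arrays left out in turn they numbered 3 each time, and the lower ones 27 (without GV oocyte 2) to 34. Fitting only probes detected on all 6 arrays gave 10 lower members. With that filter and another scaling, chosen after seeing the data, the lower members were 20 (common median), 17 (centring), 10 (cyclic loess) and 19 (no scaling), and the higher ones 0, 1, 2 and 0. Partners called higher were 0 with a common median, and 2 with no filter, a detection limit of 2, array weights or no fold limit, and 1 to 2 over the arrays left out. Partners called lower were 5 with only probes detected on all 6 arrays, against 21.7% of all such genes. Over the arrays left out they numbered 21 to 28. For both directions the shares of all genes with an array left out are those given above for the members. At a detection limit of 5, 14 members were seen in all 3 Ago2-deficient oocytes, and with an array left out 22 to 26 were, against 50 to 52 in the GV oocytes. Signs turned for Mrpl9 (-0.76, common median), Mrps28 (-1.60, and -0.49 without scaling), Mrps36 (-2.37, -1.26 and -0.15 with a common median, without scaling and with the centring), and for Rpusd4 and Letm1 (-2.27, -1.17 and -0.06 for each, in that order). The cause was not tested.

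The deviations of same-numbered oocytes correlated at -0.0487, 0.0275 and -0.0339, so the values showed no pairing by replicate number. Such correlations cannot establish how the oocytes were handled. The replicate block gave 32 lower and 3 higher members, against 42.8% and 16.3% of all genes tested. Genes undetected in a group have only a nominal fold, and 10 of the 33 lower members are of this kind.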
